A study of Mus musculus with 9 samples.

Results

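The rows examined here are the variable (V) and joining (J) segments of the T cell receptor α chain: every row of the RNA-seq count table whose Ensembl gene identifier is paired with a mouse symbol beginning Trav or Traj. There were 188 such rows, 128 V and 60 J, among 53715 rows in all. All 188 lie on chromosome 14 (GRCm38), the V segments from 52427967 (Trav1) to 53977678 (Trav23) and the J segments from 54155005 (Traj61) to 54218842 (Traj1). RefSeq lists 16 of the V rows and 9 of the J rows as pseudogenes.

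A T cell receptor α gene is assembled in double-positive thymocytes, when the RAG recombinase joins 1 V segment to 1 J segment and the joined exon is spliced to the constant segment Trac. The process is iterative. Early joins use V segments near the J cluster and J segments at its V-facing end, and each later join deletes what lies between and moves outward to V segments farther upstream and J segments nearer to Trac. Rearrangement stops when a receptor is positively selected, so the position of the segments in use is a known record of how far a population has rearranged. The segments of the δ chain lie between the α V and J segments and are removed by α joining. In C57BL/6 mice a large part of the V cluster is repeated, and the repeated segments carry d or n in their names.

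The libraries came from thymocytes of C57BL/6 mice aged 6 to 8 weeks that were sorted for TCRβ, CD69, CD24, CD4 and CD8 on the surface, a gate for double-positive cells that have begun to receive receptor signals. The 2 SRSF1KO libraries carry the genotype Srsf1fl/flLckcre/+, that is a floxed Srsf1 gene and a Cre recombinase driven by Lck, a gene active in the T lineage from before the double-positive stage. The 3 WT libraries are labelled WT only, and whether those mice carried Cre is not stated in the labels. SRSF1 is an SR protein that binds pre-mRNA and takes part in its splicing. RNA was converted to full-length cDNA by the Smart-seq2 method, and the labels do not say whether replicates were separate animals, so any p-value reflects the spread among the 5 libraries, which may be technical. The 4 CLIP-seq libraries, 2 with an SRSF1 antibody and 2 with IgG, were not analysed here.

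Library totals lay between 36026006 and 38985285 counts. Srsf1 stood at 42.6 and 30.9 CPM (counts scaled to a common library size with TMM factors) in SRSF1KO replicates 1 and 2, against 96.9, 122.7 and 103.1 CPM in WT replicates 1, 2 and 3 (log2 fold change −1.55 ± 0.19 SE, edgeR quasi-likelihood test, adjusted p = 0.0483). That call was lost when any 1 WT library was left out, with adjusted p between 0.162 and 0.220. It was also lost with DESeq2 size factors in the same model, at 0.0515, and with the replicate number as a block, at 0.314. It held with DESeq2 (1.2e-12), limma-voom (0.0205), edgeR without a filter on low counts (2.9e-06) and edgeR at a minimum mean of 5 CPM (0.0018). It held narrowly with upper quartile scaling (0.0496) and a sex term (0.0451). The log2 fold change lay between −1.80 and −1.32 over 14 alternatives. Those ends came from leaving out SRSF1KO replicate 1 and replicate 2, fits that keep only 1 SRSF1KO library. The genes that define the gate were present. Cd4 lay at 1229 and 1118 CPM in SRSF1KO and at 881, 767.1 and 932.2 CPM in WT, higher without overlap. Cd8a lay at 1820 and 1458 CPM in SRSF1KO and at 1643, 1519 and 1829 CPM in WT. Cd69 lay at 226.2 and 228.5 CPM in SRSF1KO and at 203.5, 469.3 and 270.6 CPM in WT. Cd24a lay at 300.9 and 234.3 CPM in SRSF1KO and at 182.7, 236.2 and 216.1 CPM in WT. In Cd8a, Cd69, Cd24a and the β constant segments Trbc1 and Trbc2 the groups overlapped. Whether the sorted cells of the groups differ in stage was not tested. Sex-linked transcripts put SRSF1KO replicate 1 and WT replicate 2 in a male pattern and the other 3 libraries in a female one.

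The V and J rows together took between 0.0537% and 0.0569% of the counts of a library. V rows held 14594 and 15853 counts in SRSF1KO replicates 1 and 2, and 15525, 15295 and 17032 counts in WT replicates 1, 2 and 3. J rows held 5054 and 4662 counts in the SRSF1KO libraries and 5309, 4959 and 3922 in the WT libraries. Of the 188 rows, 10 were at 0 in every library, all of them V, and 138 passed the filter on low counts (80 V and 58 J). Among these 138, the median coefficient of variation between the WT libraries was 22.2%, against 10.9% from counting alone, so differences between libraries were wider than counting error for most segments. How the counting treated reads that span a V, a J and Trac, or that fit several V copies equally, is not given in the sources used here. A count on a J row can come from a spliced chain or from RNA in which the stretch between the joined J and Trac was still unspliced, and the table does not separate them.

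A larger share of V counts lay at the J end of the V cluster in SRSF1KO libraries than in WT libraries. With the V rows ordered by position and cut into 3 sections, the proximal section (Trav7-4 to Trav23, 42 rows next to J) took 71.7% and 72.1% of the V counts in SRSF1KO replicates 1 and 2, against 67.9%, 68.4% and 66.8% in WT replicates 1, 2 and 3. The distal section (Trav1 to Trav8d-2, 43 rows farthest from J) took 8.92% and 9.23% in SRSF1KO, against 10.7%, 10.7% and 11.3% in WT. The groups did not overlap in either section, and the 95% Wilson interval of each share reached at most 0.742 percentage points from it, which covers counting error only.

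The central V section (Trav16d-dv11 to Trav6-4, 43 rows) held 19.4% and 18.7% in SRSF1KO and 21.3%, 20.9% and 21.9% in WT, again without overlap. Most of that difference came from Trav16n, a row of this section. The group means differed by −2.36 percentage points for the section and by −1.69 for Trav16n alone. In mean values the proximal share was 71.9% ± 0.25 in SRSF1KO (SD, n = 2) and 67.7% ± 0.80 in WT (SD, n = 3), a difference of 4.2 percentage points. The log2 ratio of distal over proximal V counts was −3.01 and −2.96 in SRSF1KO, against −2.66, −2.68 and −2.56 in WT. The difference between the group means of that ratio was −0.35, but it was −0.15 with the V order cut into 2 sections and −0.18 when each segment weighed the same. Within the male pattern (1 library of each group) it was −0.33 and within the female pattern (1 SRSF1KO, 2 WT) also −0.35. With 3 libraries against 2 there are 10 ways to assign the labels, so an exact permutation test cannot give a p below 0.1, and no p is given for these sums.

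In CPM rather than shares, the distal V section summed to 36.1 and 41.0 CPM in SRSF1KO and to 44.0, 45.0 and 50.04 CPM in WT, and the groups did not overlap. The proximal section summed to 290.4 and 319.7 CPM in SRSF1KO and to 278.6, 287.3 and 295.5 CPM in WT, where SRSF1KO replicate 1 lay within the WT range. With the V order cut into 4 sections, the share was higher without overlap in the section next to J: the last 32 rows held 56.8% and 53.7% of V counts in SRSF1KO, against 50.3%, 51.0% and 51.4% in WT, while the first 32 rows held 7.91% and 8.09% against 8.90%, 9.19% and 9.70%. The next-to-last 32 rows held 25.5% and 29.3% in SRSF1KO and 31.2%, 30.6% and 29.0% in WT, so there the groups overlapped.

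**Figure D1:**
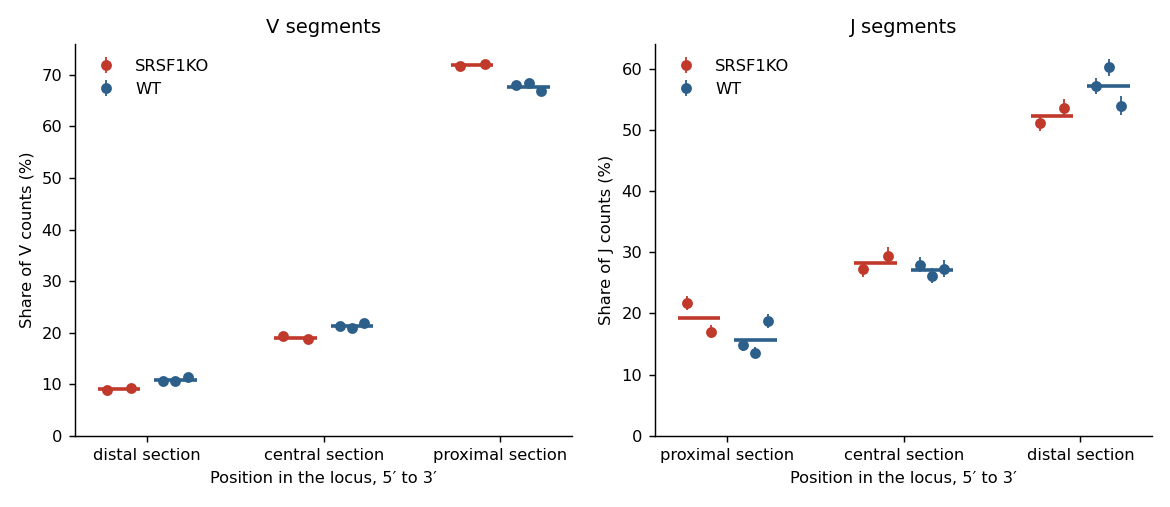
Share of V counts (left panel, %) and of J counts (right panel, %) in 3 sections of each cluster, ordered 5′ to 3′ along the locus. Each point is 1 library with its 95% Wilson interval, and bars are group means (2 SRSF1KO, 3 WT). In the proximal V section the SRSF1KO libraries sit at 71.7% and 72.1%, above all WT libraries, while in the proximal J section SRSF1KO replicate 2 lies below WT replicate 3.

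The V rows at the extreme J end had a higher summed share through Trav17 and Trav21-dv12. Trav17 to Trav23, the 7 V rows closest to J, summed to 37.9 and 29.9 CPM in SRSF1KO, against 22.7, 22.5 and 28.8 CPM in WT, or 9.36% and 6.74% of V counts against 5.53%, 5.35% and 6.52%. The groups did not overlap, but the lower SRSF1KO library lay close to WT replicate 3. Without Trav17 and Trav21-dv12 the other 5 rows summed to 8.99 and 5.32 CPM in SRSF1KO and 5.41, 6.49 and 9.45 CPM in WT, with overlap, and Trav19 lay at 5.55 and 4.08 CPM in SRSF1KO and 4.88, 5.11 and 6.70 CPM in WT. These rows were singled out after their values were seen. Trav23, the last V row, had 0 and 2 counts in SRSF1KO and 10, 14 and 1 in WT, too few to be tested.

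No single segment passed the test over all genes. In edgeR's quasi-likelihood test 0 of the 138 tested rows were called higher and 0 lower at an adjusted p under 0.05, against 0.0519% and 0.213% of the 17351 genes tested (0.265%, 46 genes, in either direction). The lowest adjusted p among the segments was 0.170. At an unadjusted p under 0.05 there were 3 segments, 2 higher and 1 lower in SRSF1KO, against 5.9% and 8.45% of all genes tested (14.4% in either direction). limma-voom called 0 segments higher and 0 lower, against 0.121% and 0.357% of genes (0.478% in either direction), while DESeq2 called 1 lower, Trav16n, and 0 higher, against 3.57% and 2.32% of the genes for which it gave an adjusted p (5.89% in either direction). At all-gene shares of 0.265% and 0.478%, 0 calls among 138 rows cannot be told apart from the share of all genes. At an unadjusted p under 0.05 and with DESeq2, which gave a p for 178 segments, the segments' share was below that of all genes. The segments were low in counts: over the 138 rows the median of the mean WT counts was 84.2 and the median standard error 0.58. Whether the lower share follows from low counts was not tested.

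Trav16n, a V row of the n repeat (chromosome 14, 53351090 to 53351621), had 253 and 282 counts in SRSF1KO replicates 1 and 2, against 507, 541 and 602 counts in WT replicates 1, 2 and 3. That is 7.02 and 7.89 CPM in SRSF1KO and 13.4, 14.9 and 15.6 CPM in WT. Every SRSF1KO library lay well below every WT library, at a log2 fold change of −0.97 ± 0.26 (SE, edgeR adjusted p = 0.170). With DESeq2 the adjusted p was 0.0231, and over the 13 alternatives that gave a value it ran up to 0.513.

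The close relatives of Trav16n did not share its difference in full. Trav16, the copy without a letter, had 8.91 and 11.9 CPM in SRSF1KO and 10.8, 13.4 and 10.6 CPM in WT, and Trav16d-dv11 had 6.10 and 2.99 CPM in SRSF1KO and 4.73, 4.70 and 4.39 CPM in WT. In both the groups overlapped. Summed, the 3 rows of the Trav16 subgroup stood at 22.0 and 22.8 CPM in SRSF1KO against 28.9, 33.0 and 30.7 CPM in WT (log2 fold change −0.46 ± 0.18 SE, edgeR, adjusted p = 0.311 when V rows were summed by subgroup).

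Trav7-6, in the proximal section (53716760 to 53717291), lay on the other side. It had 251 and 325 counts in SRSF1KO replicates 1 and 2, against 128, 124 and 164 in WT replicates 1, 2 and 3. In CPM it stood at 6.96 and 9.09 in SRSF1KO and at 3.38, 3.41 and 4.26 in WT, so the SRSF1KO libraries were all higher (log2 fold change 1.12 ± 0.36 SE, edgeR adjusted p = 0.230).

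Trav21-dv12 is among the V rows nearest to J, the third row from the end of the V order, and can also serve the δ chain, as dv in its name records. It had 13.8 and 10.3 CPM in SRSF1KO, against 6.36, 6.02 and 8.62 CPM in WT. The groups did not overlap, and the log2 fold change of 0.79 ± 0.31 (SE) did not pass (edgeR adjusted p = 0.320). Trav17, 4 rows before it in the V order, had 15.1 and 14.2 CPM in SRSF1KO and 10.9, 9.97 and 10.8 CPM in WT (0.47 ± 0.24, adjusted p = 0.426). Without Trav7-6 and Trav21-dv12 the section held 66.6% and 67.7% of V counts in SRSF1KO and 65.6%, 66.1% and 63.9% in WT, a difference of 1.95 percentage points. The gap between the nearest libraries of the groups was then smaller than the counting interval of up to 0.77 percentage points.

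The remaining segments with the largest non-overlapping differences had few counts. Trav4-2 had 67 and 48 counts in SRSF1KO and 40, 14 and 27 in WT (log2 fold change 1.16 ± 0.78 SE), and Trav7n-6 had 22 and 38 against 21, 14 and 9 (1.09 ± 1.01). On the lower side, Trav12n-3 had 2 and 2 counts in SRSF1KO and 13, 10 and 8 in WT, Trav7d-5 had 7 and 9 against 13, 18 and 38, and Trav7n-5 had 9 and 9 against 13, 20 and 25. The standard errors of these 5 log2 fold changes were 0.78 or more, and none passed.

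**Figure D2:**
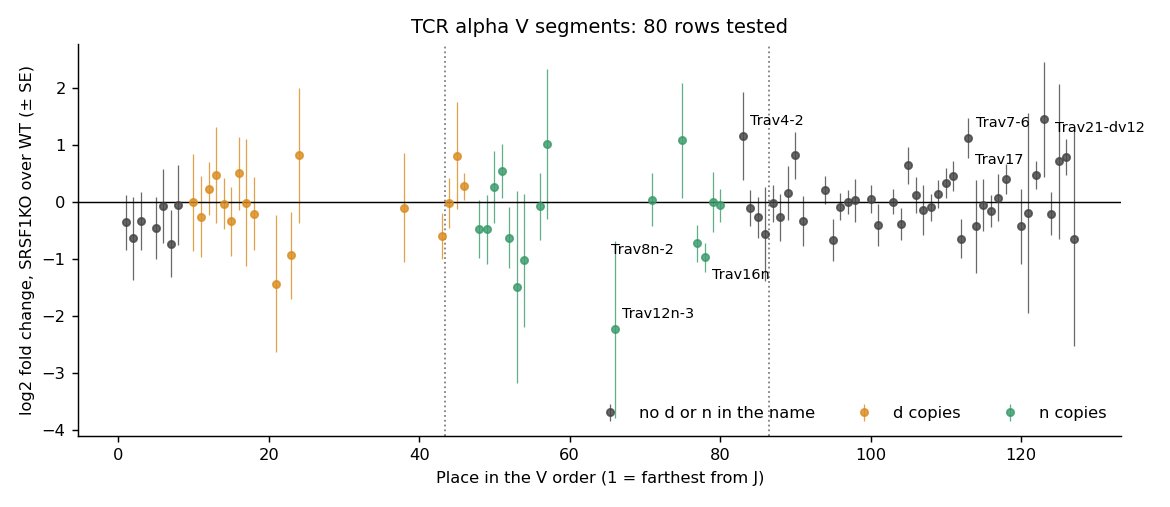
Log2 fold change (SRSF1KO over WT, ± SE) of the 80 tested V rows against their place in the V order, from the J-distant end on the left to the J end on the right. Colours separate rows with no letter from d and n copies and dotted lines mark the 3 sections; Trav16n stands at −0.97 and Trav7-6 at 1.12, and wide bars belong to rows with few counts.

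The fold changes of the tested V rows were read by section. The median log2 fold change was −0.20 over 21 tested rows of the distal section, −0.08 over 23 of the central and 0.00 over 36 of the proximal section, against −0.01 over all genes tested. In the distal section 5 of 21 rows were positive, in the central 9 of 23 and in the proximal 18 of 36. Groups did not overlap in 12 V rows with SRSF1KO higher and in 14 with SRSF1KO lower, 15% and 17.5% of those tested, against 15.2% and 17.8% of all genes tested (32.9% in either direction).

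Within the proximal section neighbours lay on opposite sides. Trav13-2 (6.91 and 8.37 CPM in SRSF1KO, against 5.25, 4.59 and 4.78 CPM in WT) and Trav5-4 (13.1 and 12.5 against 8.24, 9.45 and 10.2 CPM) were above WT. Trav6-7-dv9, the row directly after Trav5-4, was below it, at 4.33 and 4.56 CPM in SRSF1KO and 7.97, 6.21 and 6.67 CPM in WT, and so was Trav12-1, at 4.30 and 7.67 against 8.08, 11.6 and 8.85 CPM. None of the 4 passed (edgeR adjusted p between 0.426 and 0.489), and they were chosen after their values were seen. Segments of the proximal section thus lay on both sides of WT.

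The most counted V segments overlapped between the groups. The 8 V rows with the highest mean CPM were Trav3-3, Trav14-1, Trav12-2, Trav13-1, Trav14-2, Trav7-5, Trav9-2 and Trav9-4, all in the proximal section, and together they held 29.5% and 28.8% of V counts in SRSF1KO and 29.7%, 27.2% and 28.1% in WT. The same 8 rows ranked highest per kilobase of annotated span, led by Trav3-3 at 33.8 CPM per kilobase. Trav3-3 had 14.7 and 17.9 CPM in SRSF1KO and 15.9, 16.2 and 20.1 CPM in WT. Trav14-1 had 17.1 and 16.1 CPM in SRSF1KO and 16.1, 15.9 and 17.97 CPM in WT (log2 fold change 0.00 ± 0.21 SE).

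Trav14-2 showed how far libraries of 1 group could differ. It had 10.4 CPM in SRSF1KO replicate 1 and 20.8 CPM in SRSF1KO replicate 2, while the WT libraries lay at 14, 15.4 and 13.6 CPM between them. Trav6-5 likewise had 5.24 and 10.8 CPM in SRSF1KO against 5.31, 4.04 and 4.23 CPM in WT, with the SRSF1KO value resting mainly on replicate 2, a row chosen after its values were seen. Over all 80 tested V rows, Pearson's r of log2(CPM + 0.5) was 0.888 between the SRSF1KO libraries, 0.937 to 0.95 between WT libraries and 0.900 to 0.920 across groups, a description over segments that share library and depth.

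Fewer V segments were detected in SRSF1KO. V rows with at least 1 count numbered 106 and 107 in the SRSF1KO libraries, against 111, 113 and 114 in WT. The effective number of V segments, the exponential of the Shannon entropy of their count shares, was 52.6 and 52.2 in SRSF1KO and 54.1, 55.5 and 57.2 in WT, without overlap. For J rows the groups overlapped, with an effective number of 39.9 and 38.4 in SRSF1KO and 38.1, 38.1 and 40.8 in WT. The highest values in WT for both V and J belonged to replicate 3.

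The repeated part of the V cluster differed by copy. The 34 n rows held 10.5% and 11.1% of V counts in SRSF1KO, against 13.0%, 13.7% and 14.2% in WT, and the groups did not overlap. The 39 d rows held 10.5% and 10.5% in SRSF1KO and 10.7%, 10.7% and 10.3% in WT, with overlap. The 55 rows with no letter held 79.0% and 78.4% in SRSF1KO and 76.3%, 75.7% and 75.6% in WT.

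Trav16n was a large part of the n difference. Without it the other 33 n rows held 8.76% and 9.36% in SRSF1KO, against 9.74%, 10.1% and 10.6% in WT, which still did not overlap, but their summed CPM did (35.5 and 41.5 against 39.9, 42.5 and 47.1). Trav8n-2, next to Trav16n, had 4.41 and 4.14 CPM in SRSF1KO and 6.84, 7.53 and 6.88 CPM in WT (log2 fold change −0.73 ± 0.33 SE, edgeR adjusted p = 0.376). Its d copy Trav8d-2 had 2.77 and 4.14 CPM against 5.33, 4.78 and 5.58 CPM, also without overlap, while Trav8-2 had 7.57 and 3.55 CPM against 6.15, 4.04 and 7.06 CPM and overlapped. Of the 31 V stems that occur as all 3 copies, the copy with no letter had the most counts in 24, another copy had the most in 5, and 2 were tied or at 0. Reads that fit more than 1 copy may be dropped or split by the counting, so the levels of single copies are less certain than subgroup sums.

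When all rows of a V subgroup were summed into 1 feature, 22 of the 23 subgroups could be tested and 0 were called with edgeR. At an unadjusted p under 0.05 there were 2, Trav16 and Trav21. The Trav14 subgroup, the most counted, stood at 65.8 and 77.2 CPM in SRSF1KO and 62.4, 64.9 and 65.5 CPM in WT. The Trav12 subgroup stood at 31.7 and 32.9 CPM in SRSF1KO and 38.6, 42.1 and 36.8 CPM in WT, and the Trav8 subgroup at 19.4 and 16.9 against 23.1, 23.0 and 25.8 CPM. Trav12 and Trav8 were thus below WT in both SRSF1KO libraries and Trav14 above, without passing (adjusted p = 0.492, 0.419 and 0.676).

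Among J rows the V-facing section held a larger mean share in SRSF1KO, but the spread between libraries was wider than for V. The proximal J section (Traj61 to Traj42, 20 rows nearest to V) held 21.7% and 16.97% of J counts in SRSF1KO replicates 1 and 2, against 14.8%, 13.6% and 18.7% in WT replicates 1, 2 and 3. SRSF1KO replicate 2 lay below WT replicate 3, so the groups overlapped. The distal section (Traj21 to Traj1, 20 rows nearest to Trac) held 51.1% and 53.6% in SRSF1KO and 57.2%, 60.3% and 54.0% in WT, a gap to WT replicate 3 smaller than the counting interval of up to 1.56 percentage points.

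In CPM the proximal J section stood at 30.4 and 22.1 in SRSF1KO and at 20.8, 18.5 and 19.1 in WT, and here the groups did not overlap. The central section (Traj41 to Traj22) stood at 38.1 and 38.4 CPM in SRSF1KO and 39.2, 35.6 and 27.8 CPM in WT. The distal section stood at 71.7 and 69.9 CPM in SRSF1KO and 80.2, 82.1 and 55.0 CPM in WT, so WT replicate 3 lay below both SRSF1KO libraries while the other WT libraries lay above. The log2 ratio of distal over proximal J counts was 1.24 and 1.66 in SRSF1KO and 1.95, 2.15 and 1.53 in WT, a difference of −0.43 between the group means. It was −0.91 within the male pattern and −0.08 within the female pattern, and −0.22 without SRSF1KO replicate 1.

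The mean J number, weighted by counts so that a higher number lies closer to V, was 26.9 and 25.0 in SRSF1KO and 24.3, 23.5 and 25.3 in WT. Only SRSF1KO replicate 1 stood above every WT library.

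The sign of single J rows differed along the cluster. The median log2 fold change was 0.42 over 18 tested proximal rows (14 positive), 0.17 over 20 central rows (13 positive) and −0.20 over 20 distal rows (7 positive). Over all 58 tested J rows SRSF1KO lay above WT without overlap in 10 and below it in 5. That is 17.2% and 8.62%, against the 15.2% and 17.8% of all genes tested given above. By section, 6 proximal rows were above (33.3%) and 0 below, and 3 central rows were above (15%) and 0 below. In the distal section 1 row was above (5%) and 5 were below (25%). No J row reached an unadjusted p under 0.05 in edgeR, and their lowest adjusted p was 0.491.

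Traj50, a proximal J row, had 225 and 163 counts in SRSF1KO and 134, 82 and 147 counts in WT. In CPM it stood at 6.24 and 4.56 in SRSF1KO and 3.54, 2.25 and 3.82 in WT (log2 fold change 0.75 ± 0.43 SE). It lies close to Traj49, whose neighbourhood is known to hold a germline promoter that acts during early α rearrangement, and Traj49 itself had 2.61 and 2.60 CPM in SRSF1KO and 2.01, 2.25 and 2.49 CPM in WT. Both were above WT without overlap, Traj49 by a small margin, and both were chosen after their values were seen.

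Traj52 had 2.39 and 1.203 CPM in SRSF1KO and 0.924, 0.907 and 1.12 CPM in WT (log2 fold change 0.87 ± 0.68 SE). At the very start of the J cluster, Traj61, a pseudogene behind the germline T early α promoter, had 2.77 and 2.24 CPM in SRSF1KO and 1.27, 2.28 and 1.07 CPM in WT, where WT replicate 2 lay above SRSF1KO replicate 2. The other non-overlapping proximal rows were Traj60, Traj59 and Traj51, with log2 fold changes of 0.41, 0.42 and 0.50. J rows listed as pseudogenes, which cannot give a working chain, held 14.9% and 13.8% of J counts in SRSF1KO and 12.5%, 12.3% and 13.9% in WT, with overlap.

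At the Trac end the non-overlapping lower rows were Traj15, Traj14, Traj6, Traj5 and Traj1, all but Traj1 named after their values were seen. Traj5 had 1.05 and 1.04 CPM in SRSF1KO and 1.29, 1.79 and 1.51 CPM in WT, and Traj6 had 0.999 and 0.728 against 1.16, 1.62 and 1.30 CPM. Traj1, the last J row, had 2 and 6 counts in SRSF1KO and 10, 10 and 24 in WT (log2 fold change −1.76 ± 1.46 SE). The direction was not shared by every row there: Traj2 had 2.33 and 5.54 CPM in SRSF1KO and 3.27, 3.63 and 1.92 CPM in WT, with the SRSF1KO libraries on either side of all WT libraries but WT replicate 3.

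**Figure D3:**
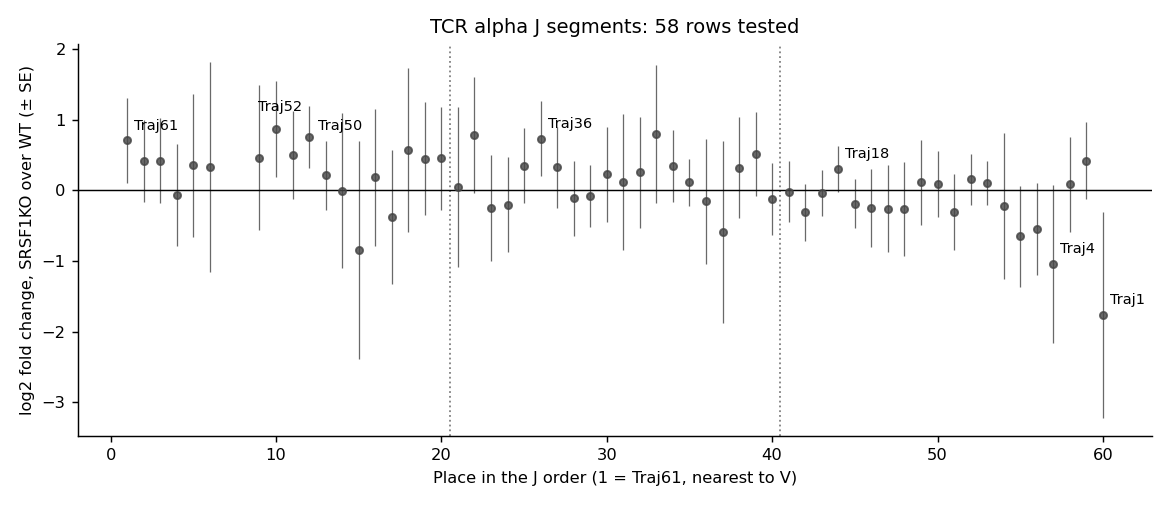
Log2 fold change (SRSF1KO over WT, ± SE) of the 58 tested J rows against their place in the J order, from Traj61 next to V on the left to Traj1 next to Trac on the right. Dotted lines mark the 3 sections; the section medians are 0.42, 0.17 and −0.20 and most bars cross 0.

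The most counted J rows lay in the distal section and differed little between groups. They were Traj19, Traj8, Traj17, Traj18, Traj27, Traj9, Traj20 and Traj21, of which only Traj27 lies in the central section, and together they held 40.7% and 42.6% of J counts in SRSF1KO and 44.6%, 45.1% and 41.5% in WT. Per kilobase the same rows led, with Traj8, a pseudogene, at 229 CPM per kilobase and Traj19 at 160 CPM per kilobase. Traj19 had 9.66 and 9.63 CPM in SRSF1KO and 11.2, 11.6 and 6.86 CPM in WT, and Traj17 had 7.88 and 7.44 against 9.69, 10.5 and 6.05 CPM. In both, WT replicate 3 lay below the SRSF1KO libraries and the other WT libraries above them.

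WT replicate 3 stood apart in its J counts. Its J rows summed to 101.8 CPM, against 140.2 and 130.4 CPM in SRSF1KO and 140.2 and 136.3 CPM in WT replicates 1 and 2, and its V counts were 4.34 times its J counts, against 2.89 and 3.40 in SRSF1KO and 2.92 and 3.08 in the other WT libraries. The log2 ratio of J sums was 0.12 over all libraries and −0.03 without WT replicate 3.

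**Figure D4:**
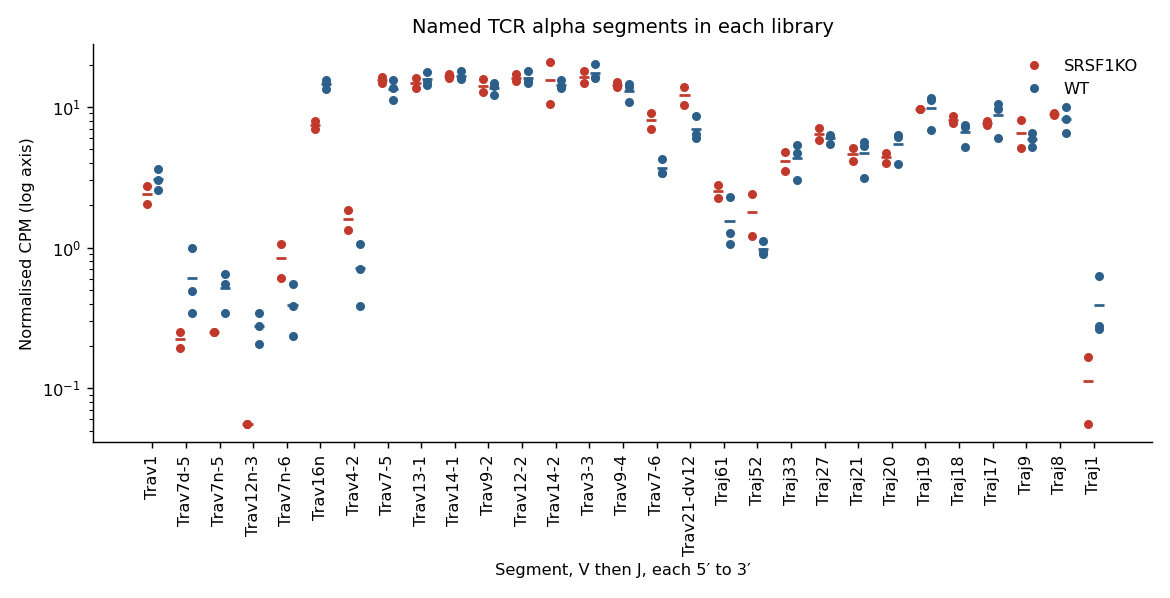
Normalised CPM (log axis) of the named V and J segments that were tested, in each of the 2 SRSF1KO and 3 WT libraries, with short bars for group means. Trav16n, Trav7-6 and Trav21-dv12 show groups that do not overlap, while the 8 most counted V rows lie between 10.4 and 20.8 CPM over all 5 libraries.

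Segments of invariant receptors were looked at by name. The chain of mouse invariant NKT cells joins Trav11 to Traj18. Trav11 had 3 and 1 counts in SRSF1KO and 2, 3 and 1 in WT, and Trav11d had 0 and 1 against 2, 2 and 9, both too few to compare. The summed Trav11 subgroup stood at 0.555 and 0.0560 CPM in SRSF1KO and 1.27, 0.412 and 0.831 CPM in WT, with overlap. Traj18 was well counted, at 308 and 274 counts in SRSF1KO and 272, 269 and 200 in WT, or 8.55 and 7.67 CPM against 7.18, 7.39 and 5.19 CPM (log2 fold change 0.30 ± 0.32 SE, edgeR adjusted p = 0.764).

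The listed markers of invariant NKT cells had a lower summed level in SRSF1KO. Over 4 of 4 genes (Zbtb16, Klrb1c, Tbx21 and Il2rb) the summed level was 91.9 and 141.6 CPM in SRSF1KO and 227.7, 252.5 and 268.5 CPM in WT, nearly all of it Il2rb, which other T cells also express, and 0 of the 4 were called. Zbtb16, the factor that defines the lineage, was at 0.0277 and 0.0280 CPM in SRSF1KO and 0.449, 1.21 and 0.182 CPM in WT. The part of such cells in the segment values was not tested.

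For the chain of MAIT cells, Trav1 joined to Traj33, Trav1 had 2.05 and 2.74 CPM in SRSF1KO and 2.56, 3.02 and 3.64 CPM in WT. Traj33 had 4.74 and 3.53 CPM in SRSF1KO and 5.39, 4.67 and 3.04 CPM in WT. Both overlapped (log2 fold changes −0.36 ± 0.48 and −0.08 ± 0.44 SE).

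The total level of V segments overlapped between the groups, while Trac lay lower in both SRSF1KO libraries. V rows summed to 404.9 and 443.6 CPM in SRSF1KO and 410.0, 420.3 and 442.3 CPM in WT. Trac, the constant segment of the chain, stood at 1000 and 1007 CPM in SRSF1KO and 1174, 1188 and 1190 CPM in WT, a narrow spread without overlap (log2 fold change −0.24 ± 0.08 SE, edgeR adjusted p = 0.230). V counts per Trac count were 0.405 and 0.440 in SRSF1KO and 0.349, 0.354 and 0.372 in WT. In sorted bulk cells, fewer cells with a given chain and less RNA of it per cell cannot be told apart.

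The sum of the V rows that can serve both chains lay above WT, and so did the δ constant segment. The 10 rows with dv in their names summed to 62.1 and 61.2 CPM in SRSF1KO and 53.3, 51.5 and 57.7 CPM in WT, without overlap. Without Trav21-dv12 the other 9 summed to 48.3 and 50.8 CPM in SRSF1KO and 46.9, 45.5 and 49.05 CPM in WT, with overlap, and Trav6-7-dv9 lay below WT as given above. Trdc stood at 56.9 and 43.9 CPM in SRSF1KO and 27.5, 30.6 and 32.1 CPM in WT (log2 fold change 0.74 ± 0.18 SE, edgeR adjusted p = 0.139). Trdc passed with DESeq2 (adjusted p = 0.0065) and with edgeR without a filter on low counts (0.0435), within a range up to 0.479 over 14 alternatives. Of the 8 listed markers of γδ T and NK cells 5 were found, and apart from Trdc they were low: Sox13 had at most 2.63 CPM in SRSF1KO and 3.38 CPM in WT, Cd163l1 at most 0.999 and 2.72 CPM, and Ncr1 was at 0 in 3 of the 5 libraries. With Trdc included, the 5 summed to 60.7 and 48.3 CPM in SRSF1KO and 32.1, 36.02 and 40.2 CPM in WT. Most of that sum was Trdc. The other 3 tested markers had negative log2 fold changes (Cd163l1 −1.36, Sox13 −0.57 and Klrb1c −0.17), with overlap in each. The part of such cells in the segment values was not tested.

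Genes that carry out or permit α rearrangement were mostly, but not all, above WT, and none passed in the main edgeR fit. Of 15 recombinase and joining genes 0 were called in either direction by that fit, 10 had a positive log2 fold change, against 49.4% of all genes tested, and the median was 0.24. Rag1, a subunit of the recombinase, stood at 1142 and 766 CPM in SRSF1KO and 663, 513 and 621 CPM in WT (0.67 ± 0.18 SE, adjusted p = 0.169). Rag2, its partner, stood at 185.1 and 106.8 CPM in SRSF1KO and 81.7, 59.8 and 115.4 CPM in WT, where WT replicate 3 lay between the SRSF1KO libraries. Dntt, which adds untemplated bases at the junction, stood at 1950 and 1286 CPM in SRSF1KO and 899, 902 and 1060 CPM in WT (0.76 ± 0.17, adjusted p = 0.127).

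Poll, a polymerase of end joining, lay lower without overlap, at 5.49 and 4.37 CPM in SRSF1KO and 11.7, 13.7 and 7.74 CPM in WT (−1.16 ± 0.36 SE, edgeR adjusted p = 0.222), and so did Atm, a kinase that responds to DNA breaks, at 29.5 and 34.4 CPM in SRSF1KO and 39.9, 39.6 and 39.9 CPM in WT. Lig4 had the lowest edgeR adjusted p of the 15 genes and lay higher without overlap. It stood at 96.5 and 83.5 CPM in SRSF1KO and 47.6, 50.5 and 57.1 CPM in WT (0.80 ± 0.14 SE, adjusted p = 0.0805). Poll, Atm and Lig4 were chosen after their values were seen. Of the 15 genes, 7 lay higher without overlap and 2 lower, against 15.2% and 17.8% of all genes tested.

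Rag1 and Dntt did pass with DESeq2 (adjusted p = 0.0044 and 3.9e-04). They also passed with edgeR without a filter on low counts (0.0468 and 0.023) and at a minimum mean of 5 CPM (0.0395 and 0.0184). With the replicate number as a block edgeR gave 0.374 and 0.418. For both, SRSF1KO replicate 1 was the higher SRSF1KO library. It was also the higher for the proximal J share but not for the proximal V share, and a link between these values was not tested.

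Of 15 regulators of the locus and of double-positive cell lifetime 0 were called by edgeR, 13 were positive and the median was 0.41, against −0.01 over all genes tested. Bcl2l1, which encodes a survival protein of double-positive cells, stood at 319.3 and 270.7 CPM in SRSF1KO and 219.2, 265.0 and 238.5 CPM in WT. Tcf12, which encodes the E protein HEB, stood at 333.0 and 270.1 CPM in SRSF1KO and 177.1, 206.7 and 246.9 CPM in WT. In both the groups did not overlap, and neither passed (edgeR adjusted p = 0.333 and 0.214). Tcf12 passed with DESeq2 (adjusted p = 0.0284) and with edgeR without a filter on low counts (0.0398), within a range up to 0.458 over 14 alternatives. Dad1, the gene that follows Trac on the chromosome, stood at 160.5 and 156.1 CPM in SRSF1KO and 197.1, 210.0 and 210.8 CPM in WT (−0.38 ± 0.09 SE, adjusted p = 0.149).

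Markers of other cells were read beside these values. Erythroid genes summed to 83.7 and 18.5 CPM in SRSF1KO and 8.45, 11.4 and 2.29 CPM in WT over 4 of 4 genes. B cell markers summed to 761.4 and 558.9 CPM in SRSF1KO and 504.2, 491.8 and 567.3 CPM in WT over 5 of 5 genes, nearly all from Ighm. Their part in the segment values was not tested.

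The β chain segments were read for comparison. Of the 51 Trbv, Trbd and Trbj rows 41 were tested, with a median log2 fold change of 0.16, and they summed to 1684 and 1507 CPM in SRSF1KO and 1523, 1448 and 1584 CPM in WT, with overlap. No test of a difference between α and β segments was made.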

How the data were processed

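RNA-seq libraries of sorted mouse thymocytes (2 SRSF1KO, 3 WT) were used. The authors deposited raw counts of reads per gene for 53715 Ensembl identifiers. Per the submitters' processing notes, the tools were DESeq2 1.20.0 and HTSeq 0.6.1 among others, and the build was mm10, with no role given. The aligner, annotation release and strand setting were not given in the sources used here. Symbols were matched for 53620 identifiers, and all 188 members had coordinates in RefSeq's GRCm38.p6 table.

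Counts were fitted over all 17351 genes that passed filterByExpr with edgeR 4.0.16 in R 4.3.3 (TMM, robust quasi-likelihood, group as the only term, Benjamini-Hochberg over all genes, threshold 0.05). Tests were two-sided. Standard errors were derived from the F statistic. DESeq2 1.42.0 and limma-voom (limma 3.58.1) were alternatives. V rows were ordered by start and J rows by number, and sums and shares use every row, filtered or not. The code was tested on simulated data.

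Groups came from the titles. Named segments are the 8 most counted V and J rows, up to 5 non-overlapping tested rows with the largest difference in each direction, the ends of each cluster and invariant-chain segments; others are marked as chosen after their values were seen. The members and lists were chosen with earlier results of these data known. Total counts of 36026006 to 38985285 per library leave single segments at a highest count of 772.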

Additional observations from a re-analysis of the deposited data

How the results depend on the processing

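The count of segments called was 0 higher and 0 lower in every alternative run except DESeq2, where 1 was lower. These alternatives were DESeq2 size factors, upper quartile scaling, no filter, a minimum mean of 5 CPM, limma-voom, a sex term, subgroup sums, leaving out any 1 library and the replicate number as a block (replicate block: 0 and 0). The numbers share no stated source, and same-numbered libraries deviated together at r = −0.025 and 0.034. Under the block edgeR called 0 genes in all.

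The V contrast (log2 distal over proximal, SRSF1KO minus WT, −0.35) was −0.15 with 2 sections, −0.49 without d and n copies and −0.18 as a mean of log2(CPM + 0.5) per segment; the cause was not tested. Leaving out 1 library gave −0.37 to −0.32 for V and −0.64 to −0.22 for J. The J contrast (−0.43) was −0.27 with 2 sections and −0.47 with the outermost of 4.

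Relative to Trac the log2 ratio of V sums was 0.24 against 0.00, and that of J sums 0.35 against 0.12, since Trac itself was lower in SRSF1KO. With 1 library left out the V sum lay between −0.07 and 0.07 and the J sum between −0.03 and 0.20. The median standard error of a tested segment was 0.58 on the log2 scale, and the spread between WT libraries was above counting error in 116 of 138 segments.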
